A study of Sus scrofa with 18 samples.

Results

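IL6, CXCL8, CCL2, PTGS2 and SOCS3 are genes of the acute inflammatory response. They were followed in the right ventricle of pigs whose ventricle failed after coronary arteries had been ligated. A probe set was taken when the probe table gave it exactly 1 of these symbols, which yielded 5 probe sets, 1 for each gene, of 23935 probe sets tested (10069 of them with exactly 1 gene). The first 4 genes differed by large factors from pig to pig, in step with each other, while none of the 5 differed between failure and baseline beyond the spread between pigs.

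The failure group held 9 arrays and the baseline group 9 arrays, both from right ventricular free wall of the same 9 pigs, a cross of Hampshire, Yorkshire and Swedish Landrace. For pigs 5, 10 and 14 (label set 2), of 30 to 40 kg, failure is labelled by a right atrial pressure above 20 mmHg. For pigs 6, 8, 9, 11, 12 and 13 (label set 1), the failure sample is labelled with 120 min of ischemia. The baseline samples precede ligation in both sets. All pigs carry the same procedure, and no pig without ligation is among the 18 arrays, so time under the procedure and the ligation cannot be told apart. The tissue is whole muscle, in which fewer cells of a type and less RNA per cell cannot be told apart.

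IL6 is a cytokine that signals through the gp130 receptor chain, JAK kinases and the transcription factor STAT3. CXCL8 attracts neutrophils, CCL2 attracts monocytes, and PTGS2 (cyclooxygenase-2) is the inducible enzyme of prostaglandin synthesis. The genes of these 4 proteins are classic targets of NF-kB, which is activated by IL1B, TNF and Toll-like receptors. They can be induced within hours in endothelium, fibroblasts, macrophages and stressed heart muscle. SOCS3 is a target of STAT3, and its protein damps IL6 signalling by binding gp130 and JAK.

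The values are log2 intensities as deposited, in which a step of 1 is a factor of 2. Array medians lay between 5.59 and 5.66, and the 25th percentile of an array, used here as the mark of a dim probe set, lay between 3.91 and 4.07. The 8 measured markers of ventricular cardiomyocytes had mean levels between 10.3 and 14.9. RNA quality was read from control probe sets at the 3' and 5' ends of GAPDH, where a larger difference goes with more degraded RNA. That difference was 0.31 to 3.55 in failure and 0.61 to 2.61 at baseline, with the highest value of each state in pig 5. Levels of different genes come from different probe sets and are not set against each other.

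IL6 had log2 intensities of 8.07, 9.21, 3.89, 8.92, 8.31, 4.27, 4.71, 6.01 and 8.55 in failure (pigs 5, 6, 8, 9, 10, 11, 12, 13 and 14). At baseline the same pigs had 3.62, 9.37, 6.81, 5.92, 8.82, 4.65, 3.70, 6.06 and 7.21. The 2 states overlapped over nearly their whole range. Pigs 6 and 10 were high in both states, pigs 11 and 12 were low in both, pigs 5 and 9 were far higher in failure, and pig 8 was far lower. The signal of the highest pig exceeded that of the lowest by 40.0-fold in failure and by 53.9-fold at baseline. In pig 5 IL6 was 21.9-fold higher in failure than at baseline, and in pig 8 it was 7.57-fold lower. The lower value of each of these 4 ratios lies below its array's 25th percentile, so they are ratios of signals against a dim value.

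The mean IL6 level was 6.88 ± 2.15 in failure and 6.24 ± 2.05 at baseline (SD, n = 9 each). The paired change, failure minus baseline, was 0.64 with a 95% interval of -0.51 to 1.80 (1.56-fold, limma adjusted p = 0.916), and IL6 was higher in failure in 4 of 9 pigs. The change had an SD of 2.15 over pigs. The standard error that limma gave by pooling variance over all probe sets was 0.54, against 0.72 from the 9 pairs alone. Without pig 5 the mean change was 0.17, without pig 9 it was 0.35, and without pig 8 it was 1.09. The mean thus moves most with 3 pigs, 2 with large increases and 1 with a large decrease.

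CXCL8, the neutrophil chemokine, had log2 intensities of 5.58, 6.33, 3.27, 6.55, 6.32, 3.06, 2.87, 4.54 and 4.15 in failure, in the same order of pigs. At baseline they were 2.65, 6.44, 4.77, 4.13, 7.28, 2.87, 2.78, 3.996 and 4.004. The same 2 pigs, 6 and 10, were high in both states, and pigs 5 and 9 joined them in failure. The probe set lay below its array's 25th percentile in 3 failure samples and 4 baseline samples, so the low end of its range is only a bound. CXCL8 averaged 4.74 ± 1.50 in failure and 4.32 ± 1.62 at baseline (SD, n = 9 each). The paired change of 0.41 (SE 0.36, 1.33-fold, 95% interval -0.36 to 1.19) did not pass the test, with a limma adjusted p of 0.919. It was above 0 in 6 of 9 pigs, reaching 7.61-fold higher in pig 5 and 2.83-fold lower in pig 8. The mean was 0.10 without pig 5, 0.16 without pig 9 and 0.65 without pig 8.

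CCL2, the monocyte chemokine, was well above background on all 18 arrays, and its mean level lay at percentile 95.8 of the mean levels of all tested probe sets. Its log2 intensities were 11.94, 12.02, 9.16, 11.02, 11.64, 9.08, 9.12, 9.10 and 10.08 in failure. At baseline they were 8.90, 11.68, 10.01, 9.77, 12.79, 8.28, 7.81, 8.47 and 10.30. Failure levels spanned 7.71-fold between pigs and baseline levels 31.4-fold, with pig 10 highest and pig 12 lowest at baseline. CCL2 averaged 10.35 ± 1.30 in failure and 9.78 ± 1.64 at baseline (SD, n = 9 each), a paired change of 0.57 (SE 0.32, 1.48-fold, 95% interval -0.12 to 1.26). Levels in failure exceeded baseline in 6 of 9 pigs (limma adjusted p = 0.864), and the mean change was 0.26 without pig 5.

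PTGS2, the inducible prostaglandin enzyme, had log2 intensities of 6.29, 6.58, 3.93, 6.56, 6.22, 4.29, 4.28, 4.41 and 4.54 in failure. At baseline they were 3.81, 6.31, 5.43, 4.99, 6.50, 3.66, 3.63, 4.42 and 4.03. In failure these values formed 2 sets, with pigs 5, 6, 9 and 10 between 6.22 and 6.58 and the other 5 pigs between 3.93 and 4.54. The gap of 1.68 between the sets was wider than the range within either. At baseline pigs 6 and 10 stood at the top, pigs 8 and 9 lay between, and 4 of 9 values were below the array's 25th percentile. PTGS2 averaged 5.23 ± 1.14 in failure and 4.75 ± 1.11 at baseline (SD, n = 9 each). The paired change was 0.48 (SE 0.28, 1.39-fold, 95% interval -0.13 to 1.09, limma adjusted p = 0.868), above 0 in 6 of 9 pigs. It came to 0.23 without pig 5 and to 0.73 without pig 8.

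SOCS3, the feedback inhibitor, gave log2 intensities between 2.91 and 3.69 in failure, with a median of 3.31. At baseline they lay between 3.03 and 3.37, with a median of 3.19. All 18 values were below the 25th percentile of their own array, so this probe set gives at most an upper bound on SOCS3 transcript here, and the probe table lists no accession for it. Its paired change of 0.12 (SE 0.06, 95% interval -0.01 to 0.26, limma adjusted p = 0.838) is the difference of signals near background.

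**Figure D1:**
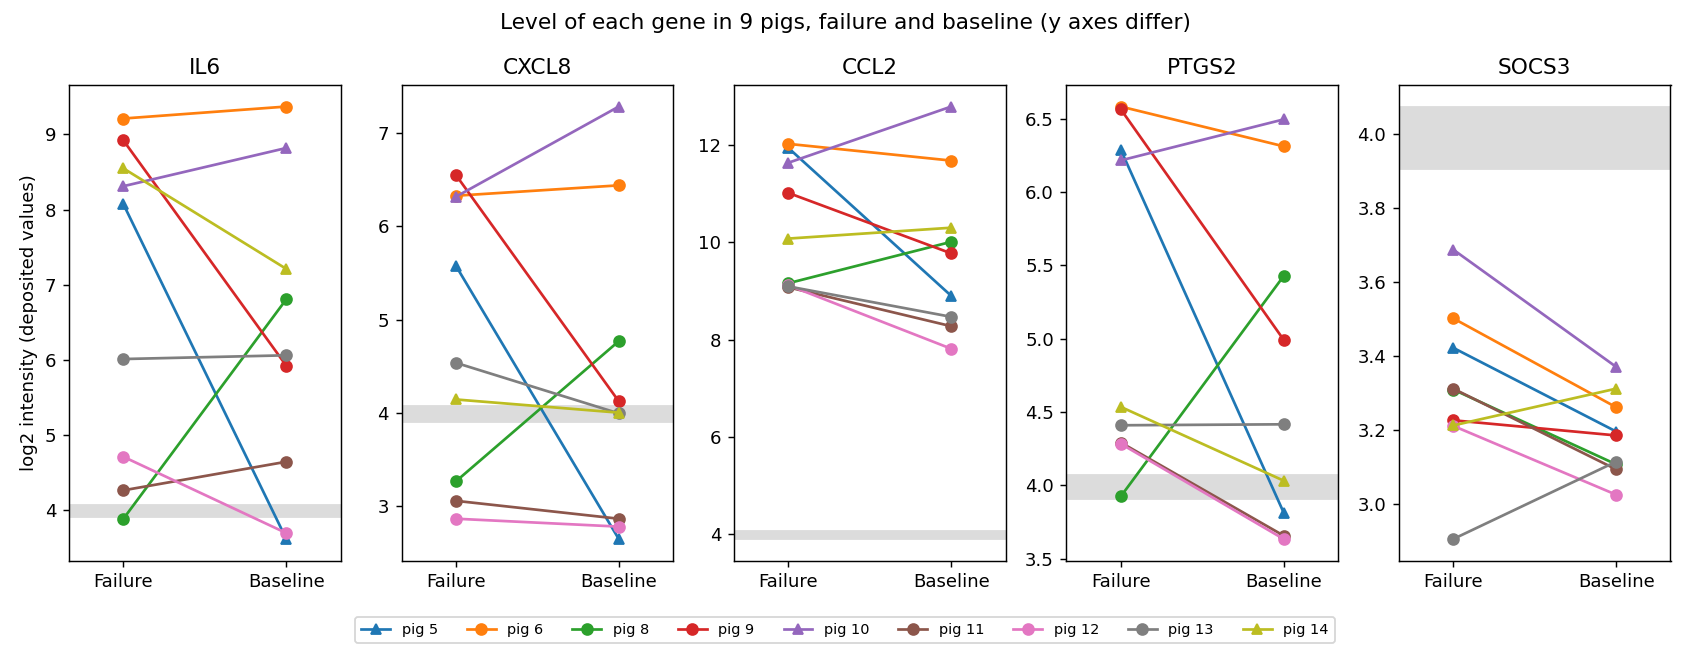
Log2 intensity of each of the 5 genes in failure (left in each panel) and at baseline (right), with 1 line per pig, circles for label set 1, triangles for label set 2 and a grey band for the 25th percentile of the arrays. The lines of IL6, CXCL8, CCL2 and PTGS2 cross, with pig 5 climbing towards failure and pig 8 dropping, while SOCS3 stays between 2.91 and 3.69.

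Of the 5 genes, 0 passed an adjusted p of 0.05 in limma, where 0.0668% of all tested probe sets did (0.0209% higher and 0.046% lower in failure). At an unadjusted p under 0.05 the count was likewise 0 of 5, against 6.14% of all tested probe sets. That share was 1.72% among the 22468 probe sets deposited with more than 2 decimals, to which all 5 belong. Of those 22468, 0 had an unmoderated paired p under 0.05, while 1431 of the other 1467 did. The form of deposit thus goes with the test result, and 1.72% is not an independent background. After adjustment, an unmoderated paired fit called 0 of all 23935 tested probe sets, so its 0 of the 5 adds nothing. The upper ends of the 95% intervals lay between 1.09 and 1.80 on the log2 scale for IL6, CXCL8, CCL2 and PTGS2, so mean increases up to that size lie within these intervals. Pooling variance over all probe sets narrows the intervals for genes of wide spread, so the 9 pairs alone allow larger increases. The median change of all tested probe sets was 0.000344.

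**Figure D2:**
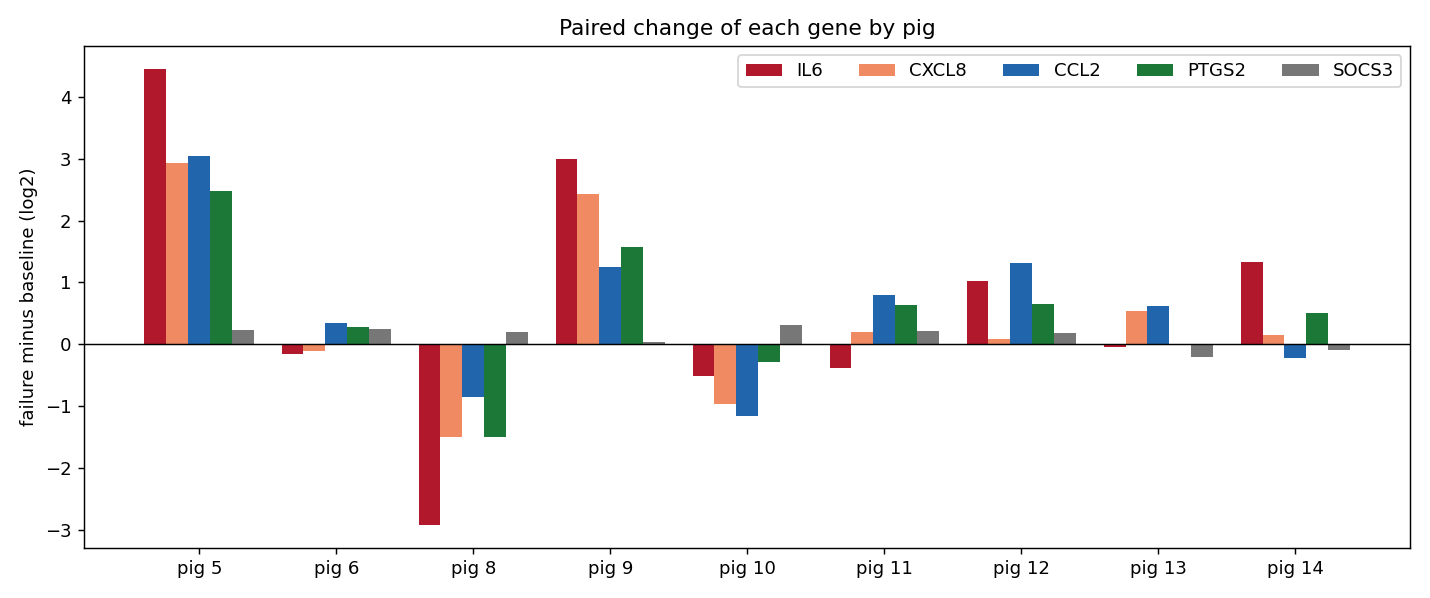
Failure minus baseline (log2) of the 5 genes in each of the 9 pigs, as bars from 0. IL6, CXCL8, CCL2 and PTGS2 are all above 0 in pigs 5, 9 and 12 and all below 0 in pigs 8 and 10, and SOCS3 stays between -0.21 and 0.32.

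The spread between pigs set these genes apart from most of the array. IL6 had the highest SD of paired change of all 23935 tested probe sets, at 2.15, against a median of 0.216. CXCL8 ranked 11th (SD 1.44), CCL2 14th (SD 1.27) and PTGS2 20th (SD 1.12), and SOCS3 ranked 16994th (SD 0.18). An SD of 1 or more was reached by 32 probe sets, or 0.134% of those tested. Other named genes near the top were NPPB, the natriuretic peptide of stretched ventricle, in rank 3, and SELE, the endothelial adhesion molecule E-selectin, in rank 4. CXCL2 (rank 7) is a neutrophil chemokine and PTX3 (rank 9) a pentraxin of the innate response.

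Levels were widely spread in both states, and so already before ligation. In failure IL6 ranked 10th of all probe sets by SD between pigs, CXCL8 31st, CCL2 46th and PTGS2 77th, where the median SD was 0.219. At baseline IL6 ranked 11th, CCL2 21st, CXCL8 24th and PTGS2 60th, where the median was 0.200. The SD in failure divided by that at baseline was 1.05 for IL6, 0.923 for CXCL8, 0.794 for CCL2, 1.02 for PTGS2 and 1.94 for the dim SOCS3. None of these ratios passed an exact permutation test that swapped states within pigs (two-sided, unadjusted p from 0.203 to 0.938, adjusted p = 0.938 for each).

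**Figure D3:**
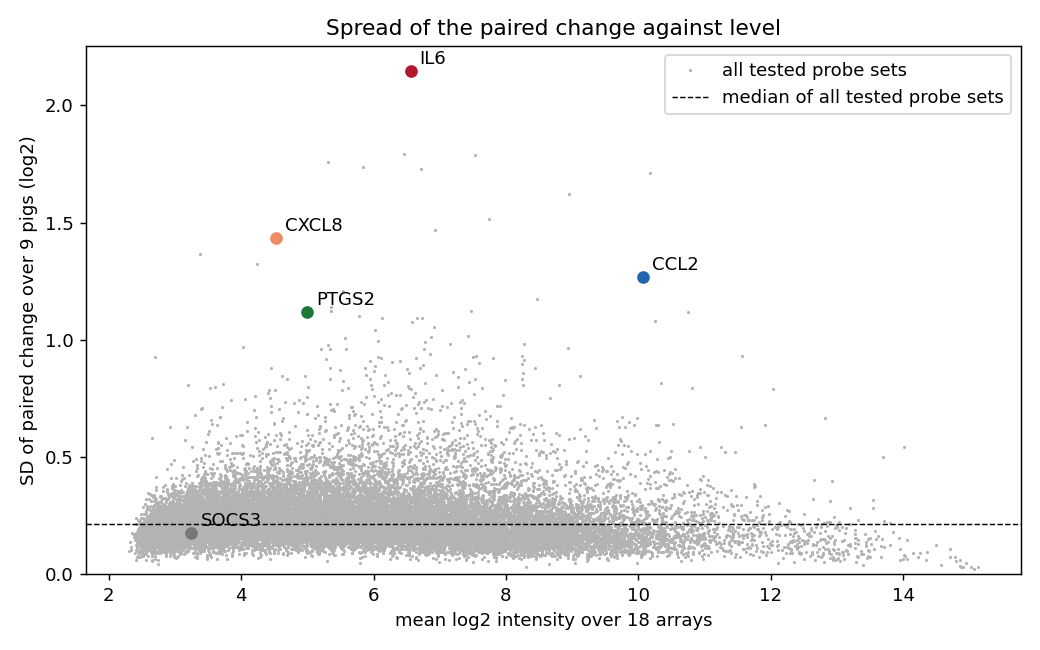
SD of the paired change over 9 pigs (log2, vertical) against mean log2 intensity over 18 arrays (horizontal) for all 23935 tested probe sets, with the 5 genes marked. IL6 is the highest point at 2.15, CXCL8, CCL2 and PTGS2 lie between 1.12 and 1.44, and SOCS3 lies under the dashed median of 0.216.

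IL6, CXCL8, CCL2 and PTGS2 varied together between pigs. Their joint variation in these data was known when the genes were chosen. The correlations therefore describe its size, and their p-values are not independent support for it, at baseline, in failure and in the changes. At baseline all 6 pairs among these 4 genes passed the correlation test over 9 pigs, with Pearson's r from 0.879 to 0.965 and Spearman's rho from 0.817 to 0.933. The exact permutation p-values of r, adjusted over 30 relations (10 gene pairs in each of 2 states and in the change), ran from 0.000909 to 0.00548, and those of rho from 0.0122 to 0.0249. The closest pair was CXCL8 and PTGS2 (r = 0.965). Pigs 6 and 10 had the highest baseline levels of all 4 genes. Leaving out the pigs farthest from the median narrows the range and leaves 7 pigs. A lower r or a larger p then cannot show which pigs the relation rests on. Without the 2 pigs farthest from the median (6 and 10, or 10 and 12 for CCL2 with PTGS2), r was 0.663 to 0.914. With 7 pigs the exact adjusted p was 0.0694 to 0.171, and 0 of 6 pairs passed (unadjusted exact p from 0.00377 to 0.114). Within the 6 pigs of label set 1, r was 0.946 to 0.989 and all 6 pairs passed (exact adjusted p from 0.0139 to 0.0179). The 3 pigs of label set 2 are too few for a value.

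The paired changes of the 4 genes also went together. Pearson's r ran from 0.813 (IL6 with CCL2) to 0.965 (IL6 with PTGS2), and rho from 0.733 to 0.900. All 6 pairs passed, with exact permutation p-values adjusted over the 30 relations from 0.00252 to 0.0169 for r and from 0.0122 to 0.0491 for rho. Changes contain the baseline levels, so they are not a separate set of measurements from those levels. Without the 2 pigs farthest from the median (5 and 9, or 5 and 10 for CCL2 with PTGS2), r was 0.526 to 0.897. The exact adjusted p was then 0.0694 to 0.309 and 0 of 6 pairs passed (unadjusted exact p from 0.0185 to 0.228). Both the range and the number of pigs shrink in this step, so it cannot show which pigs the relation rests on. Within label set 1, r was 0.781 to 0.949 and 2 of 6 pairs passed (exact adjusted p from 0.0451 to 0.148). In 5 pigs the 4 genes shared their sign, all higher in failure in pigs 5, 9 and 12 and all lower in pigs 8 and 10.

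In failure, IL6, CXCL8 and CCL2 also varied together. The 3 pairs among them had r from 0.853 to 0.886 and rho from 0.733 to 0.817 over 9 pigs, and all 3 passed (exact permutation p adjusted over the 30 relations from 0.0120 to 0.0198 for r and from 0.0249 to 0.0491 for rho). Without the 2 pigs farthest from the median r was 0.808 to 0.883 and 0 of 3 passed (exact adjusted p of 0.0694 for each, unadjusted from 0.0171 to 0.0256). Within label set 1, r was 0.893 to 0.977 and 1 of 3 passed (exact adjusted p from 0.0451 to 0.0792). No pooled r is given for pairs with PTGS2 in failure, since the values of that gene, and by the same measure of no other of the 5, fell into 2 sets. IL6 and CCL2 came close to it, with widest gaps of 2.06 and 0.94 against ranges of up to 2.12 and 1.01. The widest gaps of CXCL8 and CCL2 set apart the same pigs as that of PTGS2, 5, 6, 9 and 10. The pooled r of IL6, CXCL8 and CCL2 is thus not free of such a split.

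The 4 pigs high in PTGS2 in failure, 5, 6, 9 and 10, also held the highest 4 values of CXCL8 and CCL2. CXCL8 was 5.58 to 6.55 in these pigs and 2.87 to 4.54 in the other 5, and CCL2 was 11.02 to 12.02 against 9.08 to 10.08. IL6 ran from 8.07 to 9.21 in the 4 pigs and from 3.89 to 8.55 in the others, since pig 14 was also high. At baseline the 4 pigs did not stand together, with IL6 from 3.62 to 9.37 and CCL2 from 8.90 to 12.79. Both label sets are represented among them, with pigs 5 and 10 from set 2 and pigs 6 and 9 from set 1. A pig's failure level did not follow its baseline level in a way that passed a test. Over 9 pigs r between the states was 0.480 for IL6, 0.578 for CXCL8, 0.653 for CCL2 and 0.598 for SOCS3, with rho from 0.467 to 0.70. The exact permutation p adjusted over the 5 genes was 0.185 to 0.186 for r and 0.216 to 0.266 for rho. Unadjusted it was 0.0592 to 0.186 for r and 0.0433 to 0.213 for rho, lowest for CCL2 in both. These values do not show that the levels of the 2 states are unrelated. Without the 2 pigs farthest from the median, r was 0.127 to 0.520. Within label set 1 it was 0.470 to 0.837 (exact adjusted p from 0.201 to 0.332, unadjusted from 0.0403 for CCL2 to 0.332). Without pig 5 alone, CCL2 passed (r = 0.855, exact adjusted p = 0.0377).

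SOCS3 did not show this pattern in the changes. Its change had r from -0.203 to -0.0195 with the other 4 genes (exact adjusted p from 0.701 to 0.961, rho from -0.367 to -0.100), and 0 of 4 pairs passed (unadjusted exact p from 0.631 to 0.961). Without the 2 farthest pigs these values were -0.594 to 0.00228, and within label set 1 they were -0.430 to -0.110. At baseline 3 of its 4 pairs passed by r (r from 0.589 to 0.869) and 1 of 4 by rho, and 0 passed without the 2 farthest pigs, where r was 0.0657 to 0.690. In label set 1 its baseline r was 0.851 to 0.899. In failure its r with IL6, CXCL8 and CCL2 was 0.359 to 0.694 (rho from 0.267 to 0.650), with 1 of 3 pairs past the threshold by r (exact adjusted p from 0.0428 to 0.410) and 0 without the 2 farthest pigs, where r was 0.512 to 0.640. In label set 1 it was 0.183 to 0.575. Since every SOCS3 value was dim, these values describe signals near background.

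**Figure D4:**
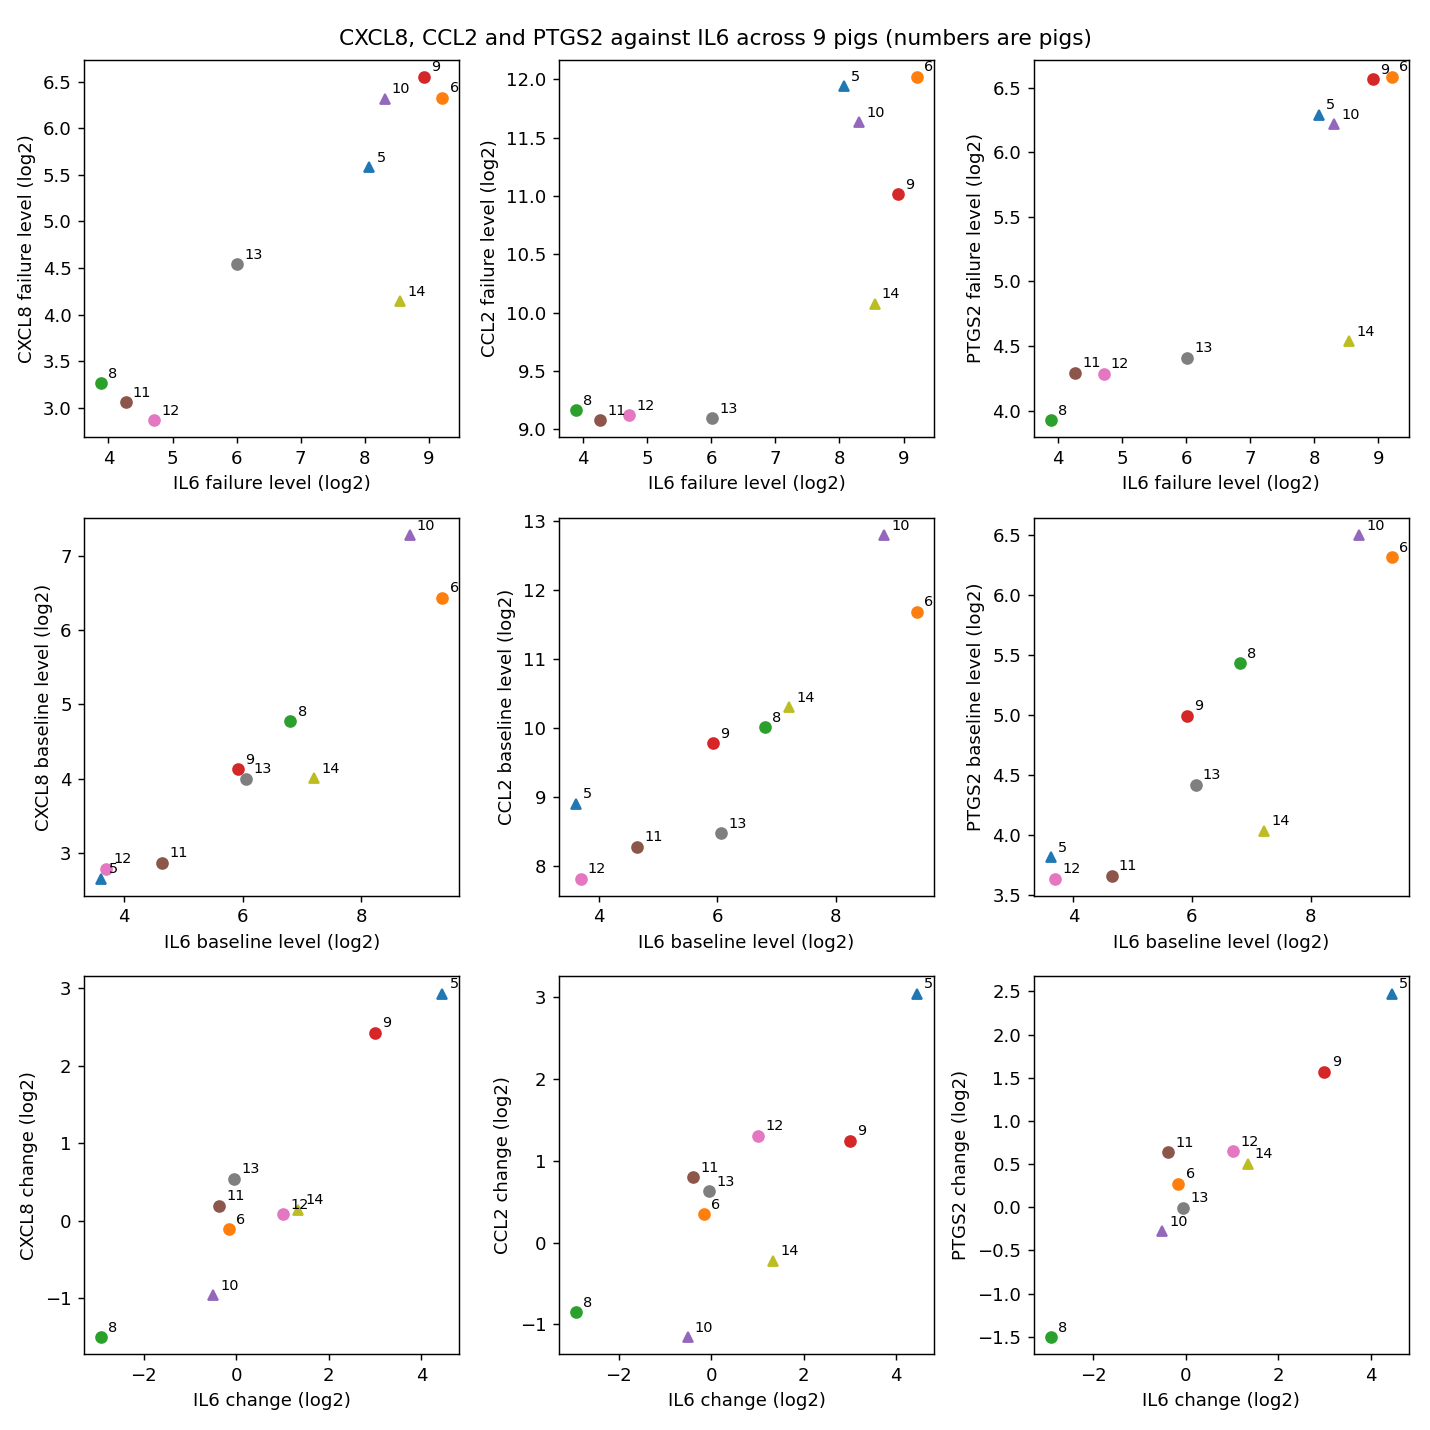
CXCL8, CCL2 and PTGS2 against IL6 across 9 pigs (log2 intensity, or log2 change) in failure (top), at baseline (middle) and for the paired change (bottom), with each pig numbered, circles for label set 1 and triangles for label set 2. Pigs 5, 6, 9 and 10 lie above the others in failure, pigs 6 and 10 lie at the top right at baseline, and in the change pig 5 lies at the top right and pig 8 at the far left.

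RNA quality did not follow the changes of these genes in a way that passed a test. The paired change of the GAPDH difference had r of 0.0895 with the change of IL6, 0.163 with CXCL8, 0.422 with CCL2, 0.0775 with PTGS2 and -0.171 with SOCS3. Spearman's rho ran from -0.117 to 0.250, and the exact permutation p adjusted over the 5 genes was 0.843 for each r and 0.982 for each rho. Pig 5, with the largest increase of IL6, also had the largest GAPDH differences, 3.55 in failure and 2.61 at baseline. Without pigs 5 and 13, the farthest in RNA quality, r was -0.588 to -0.00806 for the first 4 genes and 0.577 for SOCS3. Within label set 1 it was -0.589 to -0.102. After the GAPDH difference was regressed out, the 6 pairs of changes among IL6, CXCL8, CCL2 and PTGS2 had r from 0.859 to 0.964 and all passed. Their joint variation was known when the genes were chosen, so these values are a description. The part of RNA quality in it was not tested.

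The 2 label sets did not differ detectably in the response of any of these genes. The change of IL6 averaged 1.76 ± 2.51 in set 2 (n = 3) and 0.08 ± 1.93 in set 1 (n = 6, both SD), a difference of 1.68 with a 95% interval of -0.66 to 4.01 (limma interaction, adjusted p = 0.920). The difference was 0.43 for CXCL8, -0.02 for CCL2, 0.63 for PTGS2 and 0.03 for SOCS3, with adjusted p from 0.958 to 0.998. None of the 5 passed, where 0% of all tested probe sets did (5.67% at an unadjusted p under 0.05). Without pig 5 the difference was 0.33 for IL6, and without pig 10 it was 2.81. Those of CXCL8, CCL2 and PTGS2 were -0.68, -1.27 and -0.16 without pig 5. The interval for IL6 spans several log2 units, so a large difference between the sets was not detectable with these numbers.

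Genes around the 5 in the same pathways were read from 9 lists of 139 genes, of which 79 had a probe set. None of the 79 passed an adjusted p of 0.05 in limma (0.0668% of all tested probe sets did), and 10, or 12.7%, had an unadjusted p under 0.05 (6.14% of all tested, and 1.72% of those with more than 2 decimals). The form of deposit goes with the test result, so the 1.72% is not an independent background. Changes were above 0 for 48 and below 0 for 31, where 50.2% of all tested probe sets were above 0. Their median was 0.00971, close to that of all tested probe sets. Without pig 8, CASP1 alone of the 79 passed. The authors deposited 5 of the 79 (CASP1, CCL5, CCR1, PTGES3 and SELP) with at most 2 decimals, unlike the rest, and all 5 are among those 10.

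Upstream of the 5 genes, 16 cytokines, receptors and sensors were measured, 9 above 0 and 7 below, none past the threshold. TNF, a main inducer of NF-kB, averaged 5.20 ± 0.21 in failure and 5.55 ± 0.45 at baseline (SD, n = 9 each), lower in failure in 7 of 9 pigs (change -0.34, SE 0.15, limma adjusted p = 0.753). Its largest decrease, -1.68, was in pig 8, and the mean change without that pig was -0.18. CASP1, the protease that releases mature IL1B, averaged 5.83 ± 0.52 in failure and 6.15 ± 0.48 at baseline, lower in 8 of 9 pigs (change -0.32, adjusted p = 0.574 in limma). Among 8 NF-kB subunits and feedback genes, 5 were above 0 and 3 below. DUSP1, a phosphatase that switches off stress kinases, had a change of 0.27 (adjusted p = 0.848), which was 0.16 without pig 6 and 0.18 without pig 12. NFKB1, whose probe set was dim, had 0.17 (adjusted p = 0.865), and 0.08 without pig 11.

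Of 13 other chemokines, 6 were above 0 and 7 below. CCL5, a chemokine for T cells and monocytes, was lower in failure in 8 of 9 pigs (6.07 ± 0.46 in failure, 6.41 ± 0.28 at baseline, change -0.34, limma adjusted p = 0.591). CCL3L1, a further chemokine, was lower in 6 of 9 (change -0.41, adjusted p = 0.622), with -0.27 without pig 8. Neither passed the test. Of 5 chemokine receptors and scavengers, CCR1 was higher in failure in 7 of 9 pigs (5.31 ± 0.28 in failure, 5.06 ± 0.26 at baseline, change 0.26, adjusted p = 0.528). CXCR4 had a change of -0.05 (adjusted p = 0.965).

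From the list of IL6 family ligands and receptors, 4 genes were measured (IL6R, LIF, IL11RA and ADAM17). Their changes lay between 0.00317 and 0.05, and 2 of these 4 probe sets were dim. LIF, a related cytokine, had 0.05 (adjusted p = 0.967) and IL11RA, the receptor of IL11, 0.03 (adjusted p = 0.974). Of 9 JAK and STAT genes and their inhibitors, 6 were above 0, with STAT3 at 0.07 (8.52 ± 0.34 in failure, 8.45 ± 0.36 at baseline, limma adjusted p = 0.951). SOCS1, a relative of SOCS3 with a probe set in the measurable range, had 0.05 (adjusted p = 0.947). Response genes of STAT3 and C/EBP numbered 9, of which 5 were above 0. TIMP1, an inhibitor of matrix proteases, was higher in failure in 7 of 9 pigs (8.20 ± 0.67 in failure, 7.91 ± 0.68 at baseline, change 0.29, adjusted p = 0.690). CEBPB, a transcription factor of the acute phase, was higher in 6 of 9 (change 0.19, adjusted p = 0.753).

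Around PTGS2, 8 genes of prostanoid synthesis, breakdown and reception were measured, 2 above 0 and 6 below, with a median change of -0.05. PTGES3, a prostaglandin E synthase and HSP90 partner, had a change of -0.16 (lower in 7 of 9 pigs, limma adjusted p = 0.727). ALOX5AP, which serves leukotriene synthesis, had -0.19 (adjusted p = 0.822). Of the 7 genes of endothelial activation all were above 0 (50.2% of all tested probe sets were), with a median of 0.30, and none passed. The smallest change was 0.06, in ICAM1. Changes of SELE, THBD, ICAM1 and VCAM1 went with that of IL6 (r from 0.788 to 0.957), so the 7 are not separate observations. SELP (P-selectin), which tethers leukocytes to the vessel wall, was higher in 7 of 9 pigs (5.57 ± 0.38 in failure, 5.16 ± 0.23 at baseline, change 0.42, adjusted p = 0.528). THBD, the anticoagulant receptor thrombomodulin, was higher in 8 of 9 (change 0.24, adjusted p = 0.695).

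Several of these genes tracked IL6 from pig to pig. Of the 79, 13 had r of 0.7 or more between their paired change and that of IL6 over 9 pigs, or 16.5%, against 2.85% of the other tested probe sets. The pigs are shared by all genes, and pigs 5, 8 and 9 weigh heavily in each r, which is given as a description. The lists were chosen with earlier results of these data known, and the mark of 0.7 was set after the values were seen. The difference between the 2 shares is therefore not a test of the pathways. The highest were SELE (r = 0.957), the chemokine CCL4 (0.949), the cytokine IL1B (0.936), CXCL2 (0.900) and the adhesion molecule ICAM1 (0.886). IL10, an anti-inflammatory cytokine, had 0.864, THBD 0.850 and NFKBIA, the inhibitor of NF-kB that NF-kB itself induces, 0.845. CCL8 (0.833), CCL3L1 (0.797), VCAM1 (0.788), IRF1 (0.719) and TNF (0.714) completed the 13. SELE repeated the pattern of IL6 closely, with changes of 2.80 in pig 5, 2.68 in pig 9 and -3.04 in pig 8. Its baseline value in pig 5 (3.63) and its failure value in pig 8 (3.36) lay below their arrays' 25th percentiles. The SELE changes in pigs 5 and 8 are thus against a dim value. IL1B had changes of 1.62 in pig 5, 0.71 in pig 9 and -2.19 in pig 8. None of the IL6 family, JAK-STAT, STAT3 target, prostanoid or receptor lists held a gene with r of 0.7 or more.

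**Figure D5:**
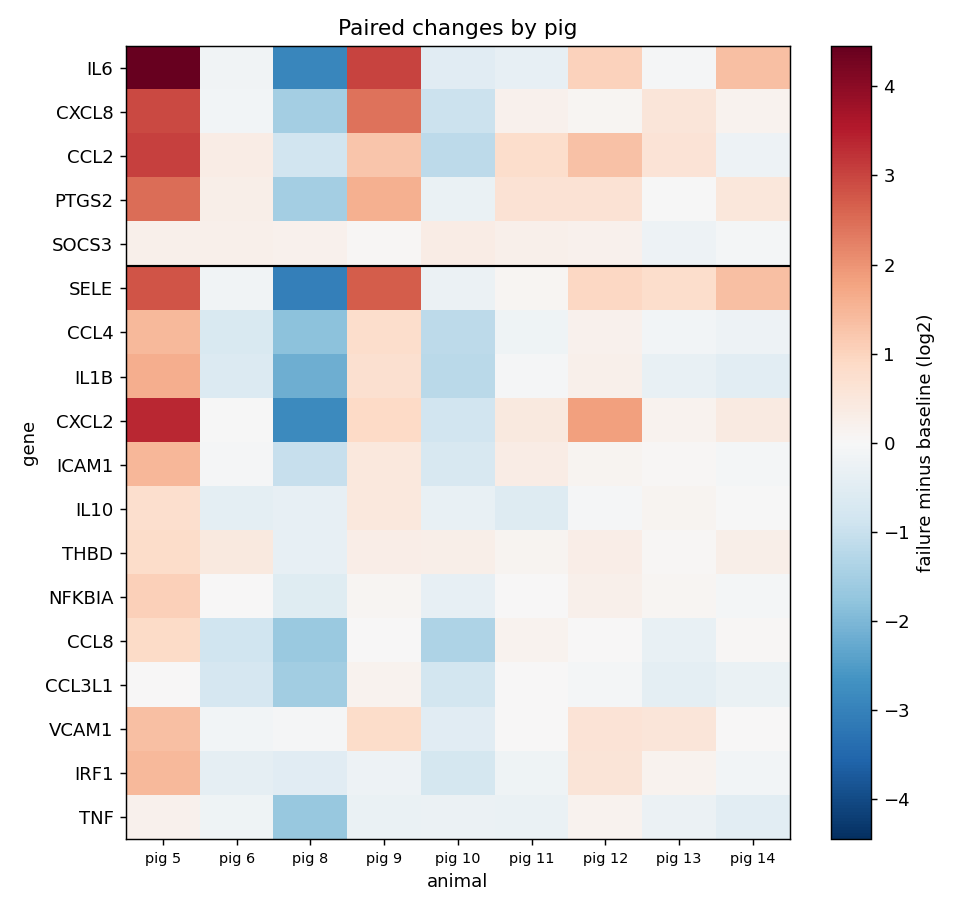
Failure minus baseline (log2, colour) in each of the 9 pigs for the 5 genes and for the 13 pathway genes whose change had r of 0.7 or more with that of IL6. Pigs 5 and 8 stand at opposite ends for most of these genes. SELE is at 2.80 in pig 5 and -3.04 in pig 8, each against a dim value. The SOCS3 row stays near 0.

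Markers of cells that could carry these transcripts were read beside them, and their part in the result was not tested. Of 11 neutrophil markers 6 were measured and 4 of these were dim, with a summed log2 level of 6.21 to 6.73 in failure and 6.18 to 6.52 at baseline. Of 10 monocyte and macrophage markers 6 were measured, summing to 9.58 to 10.5 in failure and 9.72 to 10.3 at baseline. Of 9 endothelial markers 8 were measured, at 10.7 to 11.97 in failure and 10.8 to 11.7 at baseline. None of these 20 markers passed the test. Over all 60 markers measured, 1 had r of 0.7 or more with the IL6 change, the macrophage receptor MARCO (r = 0.787). An r of -0.7 or less was found for 5, the macrophage receptor SIRPA (-0.857), the endothelial genes TIE1 (-0.765) and ESAM (-0.746), the myosin gene MYH7 (-0.728) and the T cell gene CD3E (-0.704). Of the other tested probe sets 3.93% had such an r. In the erythroid list, 3 of 5 markers fell in failure (ALAS2, AHSP and HBM, changes of -1.27, -1.19 and -0.83, limma adjusted p from 0.00486 to 0.0208), lower in 9 of 9 pigs. These 3 probe sets are also deposited with at most 2 decimals, as are all 16 probe sets past the threshold.

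Over all named genes with a mean level above the 25th percentile, the changes most like the mean of the 5 standardized members were those of IL1B (r = 0.951), ICAM1 (0.942), ETNK2 (0.941), AKAP7 (0.932) and CCL4 (0.927), over 9 pigs. With the dim SOCS3 left out of that mean, a choice made after the values were seen, they were CCL4 (0.986), IL1B (0.983), STX11 (0.975), ICAM1 (0.967) and the granulocyte growth factor CSF3 (0.944). The genes nearest to IL6 alone were SELE (0.957), GNAZ (0.951) and CCL4 (0.949). Nearest to CXCL8 were STX11 (0.978), CCL4 (0.954) and CKS2 (0.945), and nearest to CCL2 were ICAM1 (0.958), NFKBIA (0.956) and IL1B (0.933). For PTGS2 they were IL1B (0.978), CCL4 (0.965) and ICAM1 (0.954), and for the dim SOCS3 they were LIG1 (0.902), PPARA (0.865) and CIT (0.861). At baseline, levels most like the mean of the 5 were those of CXCL2 (0.944), GADD45B (0.943), PTX3 (0.941), IRF1 (0.932) and STX11 (0.930). In failure they were ADAMTS1 (0.970), STX11 (0.953), PTX3 (0.941), ADM (0.935) and NCF1 (0.929). PTX3 and STX11 were near the top in both states. All these genes were picked for the highest r over 9 pigs, so a high r is partly a result of the picking. The values are a description. The changes of GNAZ (SD 0.157), ETNK2 (0.160), CIT (0.180), CKS2 (0.182), LIG1 (0.191) and AKAP7 (0.197) spread less than the median of all tested probe sets (0.216). Those of IL1B, ICAM1, CCL4, SELE, STX11, NFKBIA and PPARA spread more.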

How the data were processed

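Total RNA (250 ng a sample) was labelled with a 3' IVT kit and hybridised to Affymetrix arrays, per the labels' protocols. The authors deposited 1 log2 intensity per probe set and array, and the submitters' processing notes list Partek without its role. How background was corrected and arrays normalized is not stated in what was available here. Any scaling between arrays would hide a shift shared by most transcripts. The number of arrays limits the precision.

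Failure was compared with baseline by limma 3.58.1 in R 4.3.3 (pig as a block, with two-sided p-values adjusted by Benjamini-Hochberg over 23935 probe sets, threshold 0.05), leaving out 188 controls. The label sets were compared by an interaction term. Samples were paired by the pig number in the labels, since both come from 1 animal. Correlations used Pearson's r and Spearman's rho with exact permutation over 362880 pairings of 9 pigs, in Python 3.11.15 with scipy 1.17.1, and spreads used 512 within-pig swaps. The fit was tested on simulated data.

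The members and lists were chosen with earlier results of these data known, joint variation of the members among them. Genes are represented by their brightest probe set. Named genes are the 2 of each list with the smallest p, those past the threshold, those with r of 0.7 or more with the IL6 change, those of widest spread, and the genes most like the members (3 per member, 5 per state). The last choice but one, and the r of 0.7, were made after the values were seen. Failure-level and baseline-against-failure correlations were planned for all 5 genes. Those with PTGS2 are not given, because its failure values split into sets of 4 and 5 pigs, by a criterion (a gap wider than either set's range) chosen after the data were seen. Alternatives were other scalings, a floor at 4, a filter on dim probe sets, other variance models, RNA quality as a covariate, each label set alone, no pig block and each pig left out.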

Additional observations from a re-analysis of the deposited data

Results flagged for a closer look

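None of IL6, CXCL8, CCL2, PTGS2 or SOCS3 had a pig far from the others by a gap test for outliers (Dixon's, 95% level). Among the 18 genes named from the pathway lists for their p (the 2 smallest of each list), 6 of 54 groups of values were marked by it, where chance marks about 1 in 20, or 2.70. The change of CASP1 was 0.55 in pig 8, the highest value, with the other pigs below 0. The change of TNF was -1.68 in pig 8, the lowest value. The failure level of CCL5 was 7.11 in pig 8, the highest value. The failure level of DUSP1 was 12.58 in pig 6, the highest value. IL11RA was lowest in pig 5 in both states, at 8.75 in failure and 9.001 at baseline.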

How the results depend on the processing

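The changes of IL6, CXCL8, CCL2 and PTGS2 kept their direction and stayed short of the threshold in all 21 alternatives, as did that of SOCS3 where it had a value (the dim filter removes it and a floor at 4 makes it constant). The mean change with each pig left out ran from 0.17 to 1.09 for IL6, 0.10 to 0.65 for CXCL8, 0.26 to 0.79 for CCL2, 0.23 to 0.73 for PTGS2 and 0.10 to 0.17 for SOCS3. Taking the mean of all probe sets of a gene leaves these 5 as they are, each having 1.

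The count of all tested probe sets past the threshold, 16 with the pig as a block, was 0 without the replicate block (440 at an unadjusted p under 0.05), where IL6, CXCL8, CCL2, PTGS2 and SOCS3 did not pass either, 0 with a floor at 4, 10 with trend and robust variance, 0 unmoderated (1431 unadjusted), 9 with the RNA quality covariate, 0 in label set 2, 3 in label set 1, and 2 to 26 with each pig left out. Without pig 8, 1 pathway gene passed, CASP1 (adjusted p = 0.0406, against 0.574 with all pigs). In label set 1, 2 pairs of changes passed in place of 6, and 1 pair in failure in place of 4 (pairs without PTGS2).

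Small values changed sign: LIF to -0.0406 with the floor, -0.0189 with the covariate and -0.00367 to 0.125 with each pig left out; SOCS1 to -0.0381 as the mean of its probe sets; STAT3 to -0.00315 with the covariate and -0.0720 in label set 2; CXCR4 to 0.0439 in label set 1 and 0.00147 without pig 5; IL11RA to -0.12 in label set 2. The difference between label sets for CCL2 was 0.0245 with the covariate, and with each pig left out it ran from -1.27 to 0.83 for CCL2, -0.68 to 1.26 for CXCL8, -0.16 to 1.22 for PTGS2 and -0.0496 to 0.158 for SOCS3. The log2 ratio of SDs was 0.29 for CXCL8 in label set 1, and with each pig left out it ran from -0.15 to 0.22 for IL6, -0.28 to 0.22 for CXCL8, -0.472 to 0.0220 for CCL2 and -0.12 to 0.25 for PTGS2. The r of changes with RNA quality then ran from -0.347 to 0.343 for IL6, -0.226 to 0.535 for CXCL8, -0.369 to 0.297 for PTGS2 and -0.437 to 0.522 for SOCS3. The causes were not tested. The r between baseline and failure levels stayed above 0 in every alternative run, and with each pig left out it ran from 0.331 to 0.674 for IL6, 0.459 to 0.732 for CXCL8, 0.563 to 0.855 for CCL2 and 0.330 to 0.748 for SOCS3. SOCS3 and the low values of CXCL8 and PTGS2 are limited by signal near background.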

Other observations

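The 16 probe sets past the threshold are all among 1467 of the 23935 tested probe sets whose deposited values have at most 2 decimals, and so are all 1431 with an unmoderated paired p under 0.05, against 0 of the other 22468. None of the probe sets of IL6, CXCL8, CCL2, PTGS2 or SOCS3 has values of that form.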
